A study of Mus musculus with 12 samples.

Results

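Gene-body methylation of cytosines not followed by guanine (mCH) was examined for 38 genes of presynaptic vesicle release in mouse cortex. The members were taken by name from a given list; the rule for membership uses no measured value. Of the 38, 37 had at least 500 cytosine calls in every library and were tested among 19826 genes. Syt5 could not be paired with a row by the name table and was not analysed here. The 37 comprised 11 genes of the active zone and vesicle priming, 12 synaptotagmins, 7 SNAREs and complexins, and 7 vesicle proteins.

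All 12 libraries came from the cortex of C57BL/6 mice and were made by whole-genome bisulfite sequencing, in which an unmethylated cytosine is read as thymine. At postnatal day 40 (P40) there were 4 wild-type (WT) and 4 miR29 KO libraries. At 4 months there were 2 WT libraries, titled DNMT3AWT, and 2 libraries of genotype Dnmt3a mi5, titled DNMT3AmiR29MUT. The labels name no further allele or agent, and do not say what mi5 stands for, which miR-29 genes or cells the KO affects, or whether a library is 1 animal. The level of a gene is its methylated calls as a percentage of all its non-CG calls.

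Depolarisation of a nerve terminal opens calcium channels, and calcium binding to a synaptotagmin on a docked vesicle triggers fusion by the SNARE complex. The active zone scaffold holds vesicles near the channels, Unc13 proteins prime them, complexins clamp and then promote fusion, and synapsins tether the reserve of vesicles. mCH is laid down in neurons after birth, largely by the DNA methyltransferase Dnmt3a, and the Dnmt3a transcript is a known target of the miR-29 family.

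The mature 3p strands of the family, from RefSeq on GRCm38.p6, are shown because the genotypes are named for them; capitals mark the seed, bases 2 to 8, which is the same in all of them. The loci are chr6:31062673-31062694 on the minus strand for miR-29a-3p and chr1:195037600-195037621 on the plus strand for miR-29c-3p. miR-29b-3p comes from both chr1:195037091-195037113 on the plus strand and chr6:31063025-31063047 on the minus strand.
miR-29a-3p: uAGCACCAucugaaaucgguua
miR-29b-3p: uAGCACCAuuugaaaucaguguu
miR-29c-3p: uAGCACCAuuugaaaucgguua

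The RefSeq table held 35 promoter windows of 300 bases for 27 of the 37 members, and none for 10. Member windows had a median of 19 CG dinucleotides, against 7 over all 32851 windows, and a median of 35 CA or TG dinucleotides against 41. The palindromic cAMP response element TGACGTCA lay in 1 of the 35 windows, that of Syn1, and in 1.79% of all windows, read on both strands. The 250 bases before a start are shown for Syt1 and Syt9, the calcium sensors of fast release with the lowest and the highest gene level here, with CG in capitals. They hold 8 and 40 CG. That of Syn1 is shown for its element, in capitals, which begins 159 bases before the start. They lie at chr10:109010976-109011225 (minus strand, the more upstream of 2 listed Syt1 starts), chr7:107370540-107370789 (plus strand) and chrX:20920919-20921168 (minus strand). The tables of calls give whole genes, so methylation within these windows was not analysed here.
Syt1: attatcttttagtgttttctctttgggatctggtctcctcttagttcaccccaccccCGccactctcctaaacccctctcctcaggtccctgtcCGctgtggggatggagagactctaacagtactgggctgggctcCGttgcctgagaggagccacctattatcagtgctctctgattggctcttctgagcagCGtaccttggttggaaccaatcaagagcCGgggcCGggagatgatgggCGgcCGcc
Syt9: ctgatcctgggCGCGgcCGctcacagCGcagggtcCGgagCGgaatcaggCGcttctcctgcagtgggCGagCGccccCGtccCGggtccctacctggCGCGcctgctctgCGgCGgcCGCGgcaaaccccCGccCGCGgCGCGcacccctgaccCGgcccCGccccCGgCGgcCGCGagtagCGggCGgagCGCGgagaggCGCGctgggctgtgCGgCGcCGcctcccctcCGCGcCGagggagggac
Syn1: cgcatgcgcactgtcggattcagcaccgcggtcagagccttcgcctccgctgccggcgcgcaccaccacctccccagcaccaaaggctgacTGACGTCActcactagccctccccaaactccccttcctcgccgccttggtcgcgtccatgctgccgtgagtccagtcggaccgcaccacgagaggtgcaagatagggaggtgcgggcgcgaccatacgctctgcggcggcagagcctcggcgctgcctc

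Each library held 399563492 to 732985426 non-CG calls over genes, and the median tested gene had 11864 to 14324 calls at P40 and 6848 to 8384 at 4 months. The mean level of all tested genes was 2.16% ± 0.316 (SD, n = 4) in the miR29 KO and 1.39% ± 0.124 (SD, n = 4) in WT at P40 (two-sided exact permutation test, p = 0.0286). At 4 months it was 2.33% ± 0.0306 (SD, n = 2) in mi5 and 1.32% ± 0.00564 (SD, n = 2) in WT (p = 0.333 by the same exact test, which cannot go lower with 2 against 2). KO replicate 4 had the lowest mean of its group, 1.72%, against 2.15% to 2.46% for the others. As a check of the labels, the miR-29 genes together had 6 to 69 calls in KO libraries and 121 to 244 in WT at P40. In 4 libraries, 1 per group, coverage of Y-linked genes was low: WT replicate 2 and KO replicate 3 at P40, and WT replicate 2 and mi5 replicate 1 at 4 months. Cortex holds other cells than neurons, and genes marking astrocytes, oligodendrocytes, microglia and endothelial cells also rose, in 21 of 22 cases at P40 and 20 of 22 at 4 months, against 76.5% and 58.8% of all genes. A gene is said to rise at an adjusted p under 0.05 in a logistic model over all libraries. None of these 22 departed from the shift common to all genes, and the part of cell composition in the results below was not tested.

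In WT cortex at P40 the members spanned levels from 0.225% for Vamp2 to 2.79% for Syt6. Of the 37, 17 were at or below 1% and 8 were above 2%. The median member was at 1.07% in WT and 1.47% in the KO, and at 1.11% in WT and 1.77% in mi5 at 4 months. The medians over all tested genes were 1.31%, 2.09%, 1.23% and 2.22%. The median rank of a member among all genes in WT at P40 was the 40.2 percentile. It was 51.4 for active zone genes, 49.6 for synaptotagmins, 34.4 for vesicle proteins and 20.5 for SNAREs and complexins. The order of members was nearly the same in the 2 WT groups (Spearman's rho 0.936 over 37 genes, 0.946 over all genes, as a description).

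**Figure D1:**
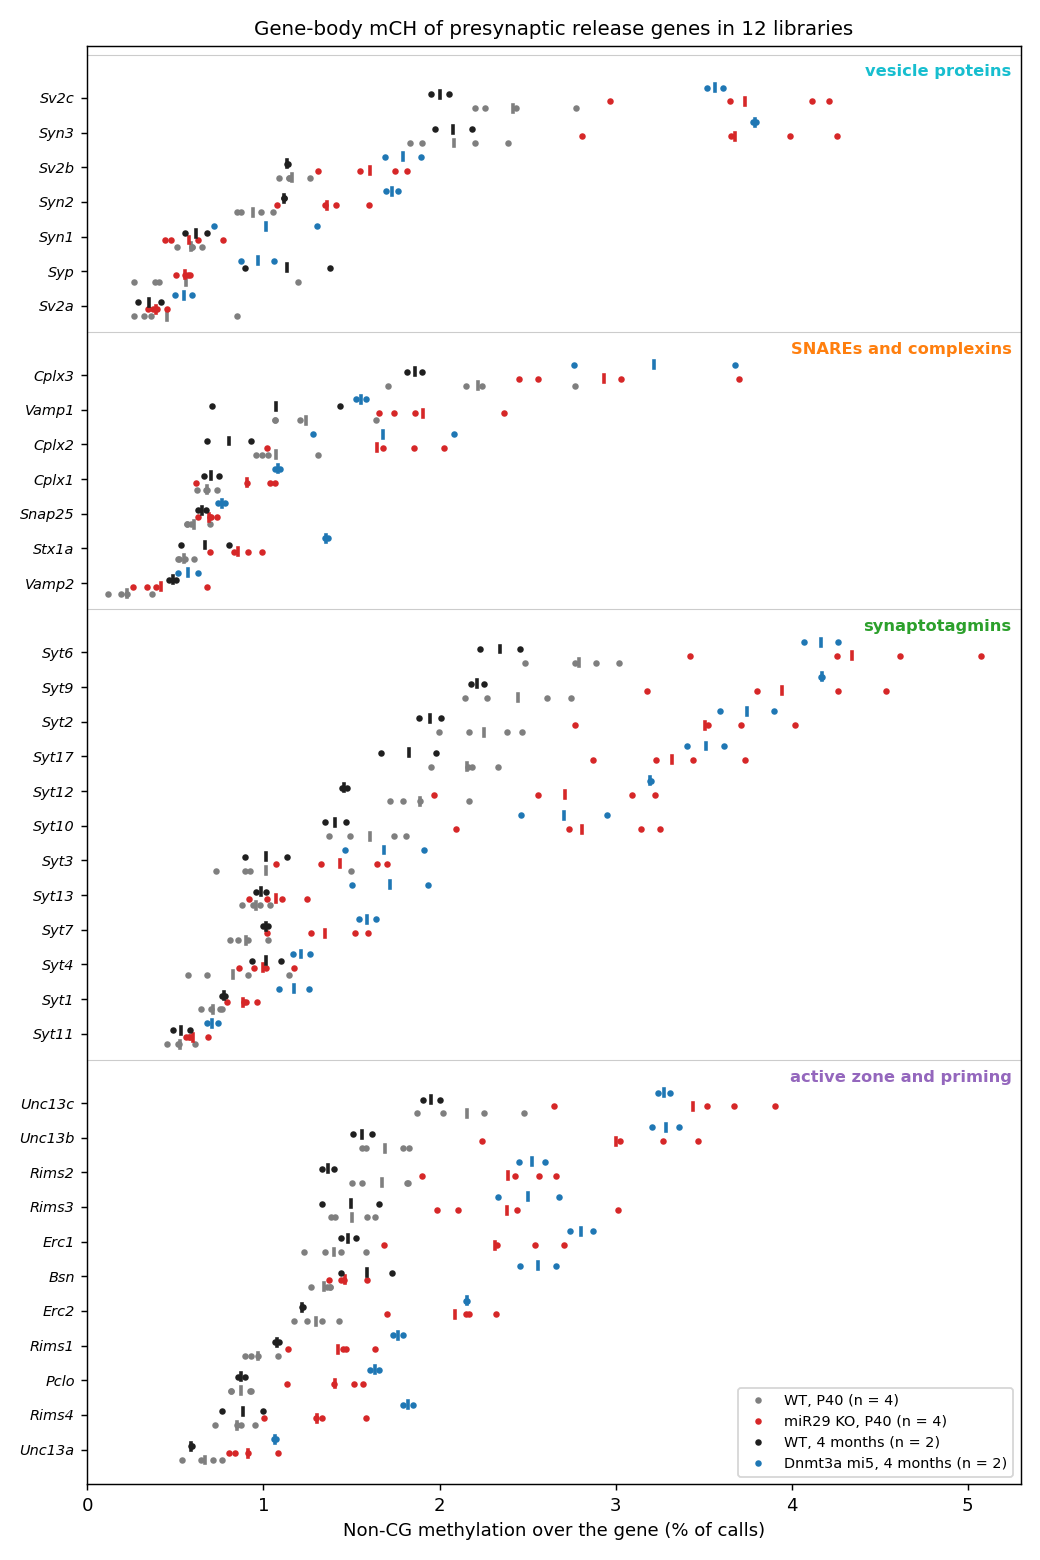
Level of mCH (percent of non-CG calls, x axis) of 37 release genes in each library; points are libraries, short vertical bars are group means, and genes are ordered by WT P40 level within a role. Syt6, Syt9 and Sv2c lie between 2.97% and 5.08% in the mutants, whereas Vamp2, Sv2a, Syn1, Snap25 and Syt11 are at or below 1.31% in every library.

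The P40 comparison asked how mCH of these genes differs between miR29 KO and WT cortex. In the KO, 27 of 37 members rose and 0 fell. Over all genes 76.5% rose and 0.0454% fell by the same rule. The change is given as a log2 odds ratio, which for levels this low is close to a log2 ratio of levels. Its median was 0.60 over members and 0.65 over all genes. Every KO library lay above every WT library for 22 of 37 members, against 57.1% of all genes. Both counts are near the shares of all genes. With any 1 of the 12 libraries left out, 23 of the 27 calls held, the exceptions being Cplx1, Cplx3, Syt3 and Unc13a.

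In Dnmt3a mi5 cortex at 4 months, 24 of 37 members rose and 0 fell, where 58.8% of all genes rose. The median log2 odds ratio was 0.81 over members and 0.82 over all genes. Both mi5 libraries were above both WT libraries for 36 members, all but Syp, against 86.2% of genes. The count of 24 rests on 2 libraries a group: it was 10 without WT replicate 1, 15 without WT replicate 2, and 0 without the libraries of low Y-gene coverage, which leaves 1 library a group. With any 1 library left out, 9 of the 24 calls held, those of Erc1, Rims2, Unc13b, Syt2, Syt6, Syt9, Syt12, Syt17 and Sv2c. Members that rose in both comparisons numbered 21, against 56.7% of all genes, and 7 (Snap25, Sv2a, Syn1, Syp, Syt11, Syt4 and Vamp2) passed in neither, against 21.4%. For 0 of 37 members did the 2 changes differ by their own test, with 2, Bsn and Syt13, at an unadjusted p under 0.05. Over all genes the same test called 0, with 1.46% at an unadjusted p under 0.05. This test compares different mutants at different ages, so mutant and age cannot be told apart in it.

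**Figure D2:**
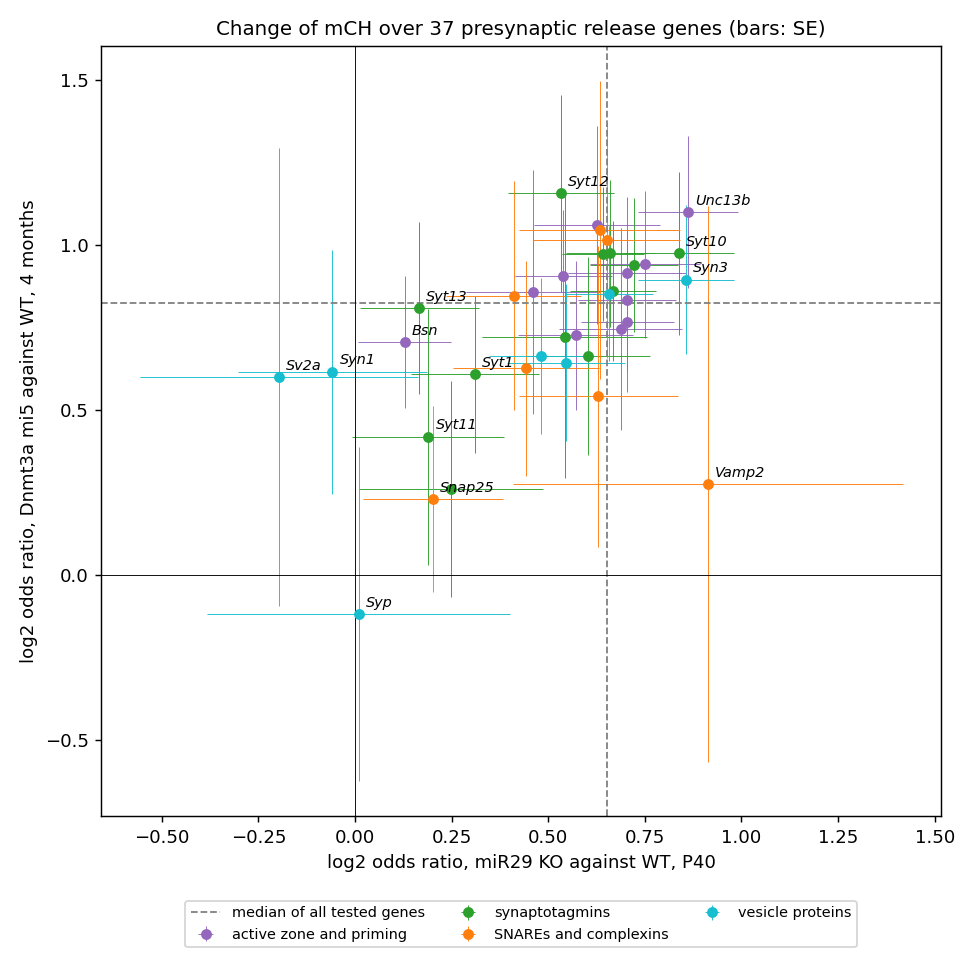
Change of mCH in miR29 KO against WT at P40 (x axis) and in Dnmt3a mi5 against WT at 4 months (y axis), both as log2 odds ratios with bars of 1 SE, for 37 genes coloured by role; dashed lines mark the median of all tested genes. Most members lie around the crossing of the dashed lines, while Bsn and Syt13 lie far left of it (0.13 and 0.17 at P40) at 4-month values of 0.71 and 0.81.

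Among the active zone and priming genes, 10 of 11 rose in the KO (median log2 odds ratio 0.69) and 10 of 11 in mi5 (median 0.86), beside 76.5% and 58.8% of all genes. Unc13c and Unc13a, priming factors, had the highest and lowest WT levels of this group. Unc13c was at 1.87%, 2.48%, 2.25% and 2.02% in WT and 3.91%, 3.67%, 3.52% and 2.65% in KO libraries, then 1.90% and 2.0% in WT and 3.31% and 3.24% in mi5 at 4 months. The groups did not overlap at either age (log2 odds ratios 0.70, SE 0.12, adjusted p = 7.73e-05, and 0.77, SE 0.21, adjusted p = 0.00652).

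Unc13a stood at 0.536%, 0.716%, 0.645% and 0.767% in WT and 0.839%, 0.913%, 1.08% and 0.804% in KO libraries. The groups did not overlap, but the rise at P40 (0.46, SE 0.17, adjusted p = 0.0219) was lost without any 1 of 3 libraries (adjusted p from 0.0523 to 0.0967 without WT replicate 1, WT replicate 3 or KO replicate 3). At 4 months it was 0.593% and 0.589% in WT and 1.06% and 1.07% in mi5 (0.86, SE 0.37, adjusted p = 0.0531; 0.00535 by limma on log2(percent + 0.1)). Colgalt1 overlaps Unc13a and its calls came to 33.1% of those of Unc13a.

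Unc13b, a further priming factor, was at 1.58%, 1.82%, 1.79% and 1.56% in WT and 3.47%, 3.27%, 3.02% and 2.24% in KO libraries. At 4 months the levels were 1.51% and 1.62% in WT and 3.21% and 3.36% in mi5. All mutant libraries were above all WT libraries of their age, and the changes were 0.86 (SE 0.13, adjusted p = 5.71e-05) and 1.10 (SE 0.23, adjusted p = 0.003).

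Bsn, which encodes the large scaffold protein Bassoon, was the active zone gene that did not pass in the KO. It was at 1.27%, 1.36%, 1.38% and 1.38% in WT and 1.44%, 1.59%, 1.46% and 1.37% in the KO. KO replicate 4 fell within the WT range, and the change was 0.13 (SE 0.12, adjusted p = 0.329). In the older mice it was at 1.44% and 1.73% in WT and 2.66% and 2.46% in mi5, with no overlap (0.71, SE 0.20, adjusted p = 0.0071; 0.0944 without WT replicate 1 and 0.0546 without mi5 replicate 1). The 2 changes of Bsn differed by 0.58 (SE 0.23, unadjusted p = 0.0224, adjusted p = 0.998). Pclo, which encodes the related scaffold Piccolo, rose at both ages, by 0.70 (SE 0.15, adjusted p = 0.00043) and 0.91 (SE 0.23, adjusted p = 0.00406).

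Rims1 and Rims2 encode scaffolds that link vesicles to calcium channels. Rims1 was at 0.897%, 1.09%, 0.966% and 0.930% in WT and 1.64%, 1.45%, 1.47% and 1.14% in the KO, then 1.06% and 1.09% in WT and 1.79% and 1.74% in mi5. Rims2 was at 1.5%, 1.82%, 1.81% and 1.56% in WT and 2.66%, 2.57%, 2.43% and 1.90% in the KO, then 1.33% and 1.40% in WT and 2.60% and 2.45% in mi5. Neither overlapped between genotypes at either age. Both rose, Rims1 by 0.57 (SE 0.15, adjusted p = 0.00192) and 0.73 (SE 0.22, adjusted p = 0.0114), Rims2 by 0.54 (SE 0.12, adjusted p = 0.00082) and 0.91 (SE 0.20, adjusted p = 0.003). A short transcript of Rims2 with 5.88% of the calls was lower than the long one, at 1.27% against 1.67% in WT and 1.6% against 2.39% in the KO at P40.

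Of the synaptotagmins, 8 of 12 rose in the KO and 8 of 12 in mi5, with medians of 0.57 and 0.83, beside the same 76.5% and 58.8% of all genes. Syt6 had the highest level of all members, 2.77%, 2.89%, 3.02% and 2.49% in WT and 5.08%, 4.62%, 4.26% and 3.42% in the KO. The 4-month levels were 2.23% and 2.46% in WT and 4.07% and 4.26% in mi5. It did not overlap at either age and rose by 0.67 (SE 0.11, adjusted p = 6.43e-05) and 0.86 (SE 0.21, adjusted p = 0.00378).

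The sensors of fast synchronous release are Syt1, Syt2 and Syt9, and their WT means at P40 were 0.716%, 2.25% and 2.45%. Syt1 was at 0.765%, 0.753%, 0.646% and 0.701% in WT and 0.966%, 0.90%, 0.888% and 0.793% in the KO. Every KO library was above every WT library, by little, and the change did not pass (0.31, SE 0.17, adjusted p = 0.0927; 0.0105 without KO replicate 4). At 4 months Syt1 was at 0.767% and 0.784% in WT and 1.26% and 1.09% in mi5 (0.61, SE 0.24, adjusted p = 0.0357), a call lost in 7 of 12 runs that left out a library (adjusted p up to 0.195).

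Syt9 went from 2.45% ± 0.282 to 3.94% ± 0.592 (SD, n = 4 each) at P40 and from 2.21% ± 0.0525 to 4.17% ± 0.00464 (SD, n = 2 each) at 4 months. Syt2 went from 2.25% ± 0.214 to 3.51% ± 0.531 and from 1.95% ± 0.0866 to 3.75% ± 0.218. Both rose at both ages, with log2 odds ratios of 0.72 and 0.94 for Syt9 and 0.66 and 0.97 for Syt2. The fast sensor with the lowest level, Syt1, had the smallest fitted change of the group, though a difference in change between the 3 genes was not tested.

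Syt11, a synaptotagmin that does not bind calcium, had the lowest WT level of its family. It was at 0.610%, 0.518%, 0.514% and 0.454% in WT and 0.688%, 0.582%, 0.579% and 0.561% in the KO, then 0.488% and 0.580% in WT and 0.744% and 0.677% in mi5. The P40 groups overlapped, and the changes of 0.19 (SE 0.20, adjusted p = 0.383) and 0.42 (SE 0.39, adjusted p = 0.346) did not pass. Syt13, another member without calcium binding, was at 0.879%, 1.04%, 0.939% and 0.981% in WT and 1.02%, 1.10%, 1.25% and 0.920% in the KO. Those ranges overlapped (0.17, SE 0.15, adjusted p = 0.328). At 4 months Syt13 was at 1.01% and 0.959% in WT and 1.94% and 1.5% in mi5, a change of 0.81 (SE 0.26, adjusted p = 0.014; 0.0756 to 0.14 without either WT library or without mi5 replicate 1).

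Syt12 had the largest fitted change at 4 months, from 1.44% and 1.48% in WT to 3.19% and 3.20% in mi5 (1.16, SE 0.30, adjusted p = 0.00453). At P40 it was at 1.89%, 2.17%, 1.72% and 1.79% in WT and 3.22%, 3.09%, 2.56% and 1.97% in the KO, where KO replicate 4 fell within the WT range (0.53, SE 0.14, adjusted p = 0.00193). Syt10 (0.84 and 0.97), a sensor for secretion of growth factor, and Syt17 (0.64 and 0.97) rose at both ages. Syt7, a slow, high-affinity sensor, rose at P40 (0.60, SE 0.16, adjusted p = 0.00214) and missed the threshold at 4 months (0.66, SE 0.30, adjusted p = 0.0638; 0.0165 by limma on log2(percent + 0.1)). Syt4 passed at neither age (0.25 and 0.26). Syt3 passed at P40 (0.54, SE 0.21, adjusted p = 0.0267; lost in 5 of 12 runs that left out a library, at up to 0.104), but 1700008O03Rik overlaps it and has 96.2% as many calls. Its levels differ from those of Syt3 (2.26% against 1.69% in mi5), so the rows do not hold the same calls, and the number they share is not known.

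The SNAREs and complexins had the lowest levels, with a median of 0.677% in WT at P40, and 5 of 7 rose in the KO and 2 of 7, Stx1a and Cplx3, in mi5, where 76.5% and 58.8% of all genes did. The median changes were 0.63 in each comparison. Stx1a, the syntaxin of the plasma membrane, went from 0.550% ± 0.0417 to 0.858% ± 0.127 (SD, n = 4 each) at P40 (0.65, SE 0.19, adjusted p = 0.00473). At 4 months it was at 0.802% and 0.533% in WT and 1.37% and 1.35% in mi5 (1.01, SE 0.36, adjusted p = 0.0218; 0.0617 to 0.16 when any 1 of these libraries was left out).

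Snap25, the SNARE anchored to the plasma membrane by lipid, was at 0.588%, 0.697%, 0.567% and 0.568% in WT and 0.699%, 0.738%, 0.703% and 0.630% in the KO. WT replicate 2 lay inside the KO range. At 4 months it was at 0.671% and 0.626% in WT and 0.780% and 0.744% in mi5, without overlap. Neither change passed (0.20, SE 0.18, adjusted p = 0.314, and 0.23, SE 0.28, adjusted p = 0.476).

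Vamp2, the SNARE of the vesicle, had the lowest level and the largest fitted change at P40. It was at 0.115%, 0.225%, 0.194% and 0.367% in WT and 0.258%, 0.388%, 0.681% and 0.340% in the KO, then 0.466% and 0.505% in WT and 0.629% and 0.513% in mi5. The P40 groups overlapped, and with 779 to 2708 calls a library the 95% Wilson interval of the first WT value ran from 0.0392% to 0.338%. The changes of 0.91 (SE 0.50, adjusted p = 0.105) and 0.28 (SE 0.84, adjusted p = 0.782) did not pass, although limma on log2(percent + 0.1) called the first (adjusted p = 0.0425).

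Cplx3, a complexin known from retinal ribbon synapses, had the highest level of the group, 2.24%, 2.77%, 2.15% and 1.71% in WT and 3.03%, 3.70%, 2.45% and 2.56% in the KO. The ranges overlapped, although the change passed (0.41, SE 0.17, adjusted p = 0.0397). The 4-month libraries gave 1.90% and 1.82% in WT and 2.77% and 3.68% in mi5 (0.85, SE 0.35, adjusted p = 0.0428). The calls were lost in 5 and in 4 of 12 runs that left out a library (adjusted p up to 0.175 and 0.303). Cplx1 and Cplx2, the complexins of most central synapses, rose at P40 by 0.44 (SE 0.19, adjusted p = 0.0401) and 0.63 (SE 0.21, adjusted p = 0.01) and missed the threshold at 4 months (adjusted p = 0.101 and 0.0528). Cplx1 missed it at P40 too whenever a library was left out, except KO replicate 4. Vamp1 rose at P40 (0.63, SE 0.20, adjusted p = 0.00935).

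Of the vesicle proteins, 4 of 7 rose in the KO and the same number in mi5, with medians of 0.48 and 0.64, against 76.5% and 58.8% of all genes. Those that rose at P40 and at 4 months were Syn2, Syn3, Sv2b and Sv2c. Sv2c, an isoform of a glycoprotein found on all synaptic vesicles, was at 2.20%, 2.77%, 2.44% and 2.26% in WT and 4.21%, 4.12%, 3.65% and 2.97% in the KO, then 2.05% and 1.95% in WT and 3.52% and 3.61% in mi5. No groups overlapped (0.66, SE 0.11, adjusted p = 7.91e-05, and 0.85, SE 0.21, adjusted p = 0.00355). Sv2b was at 1.09%, 1.27%, 1.14% and 1.14% in WT and 1.82%, 1.75%, 1.55% and 1.31% in the KO, then 1.14% and 1.13% in WT and 1.89% and 1.69% in mi5, also without overlap. The paralogue Sv2a was at 0.267%, 0.360%, 0.323% and 0.852% in WT and 0.452%, 0.372%, 0.397% and 0.343% in the KO, then 0.417% and 0.287% in WT and 0.593% and 0.499% in mi5. WT replicate 4 alone set the sign at P40, where the change was -0.20 (SE 0.36, adjusted p = 0.624) with it and 0.32 without it. At 4 months the change was 0.60 (SE 0.69, adjusted p = 0.452).

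The synapsins diverged in level. Syn3 was at 1.90%, 2.39%, 2.20% and 1.83% in WT and 4.26%, 3.99%, 3.66% and 2.81% in the KO, then 1.97% and 2.18% in WT and 3.80% and 3.78% in mi5. Its groups did not overlap at either age (0.86, SE 0.12, adjusted p = 5.71e-05, and 0.89, SE 0.23, adjusted p = 0.00415). The 4-month change was 0.82 without WT replicate 1, and its call is not among those kept with any 1 library left out. Timp3 and Fbxo7, which overlap Syn3, had 11.1% and 6.58% as many calls. Syn2 was at 0.874%, 1.05%, 0.985% and 0.852% in WT and 1.6%, 1.41%, 1.35% and 1.07% in the KO, then 1.11% in both WT libraries and 1.76% and 1.70% in mi5. It rose by 0.55 (SE 0.15, adjusted p = 0.0034) and 0.64 (SE 0.24, adjusted p = 0.0274).

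Syn1 and Syp lie on the X chromosome. Syn1 was at 0.649%, 0.511%, 0.594% and 0.594% in WT and 0.769%, 0.629%, 0.442% and 0.476% in the KO, then 0.680% and 0.554% in WT and 0.721% and 1.31% in mi5. KO libraries lay both above and below WT, and neither change passed (-0.06, SE 0.24, adjusted p = 0.835, and 0.62, SE 0.37, adjusted p = 0.152). Araf and Timp1 overlap Syn1 with 19.8% and 7.47% as many calls. Syp, which encodes the abundant vesicle protein synaptophysin, was at 1.2%, 0.408%, 0.381% and 0.264% in WT and 0.584%, 0.570%, 0.554% and 0.504% in the KO, then 1.38% and 0.893% in WT and 1.06% and 0.871% in mi5. It overlapped at both ages, and the sign of its change turned with single libraries (0.01, SE 0.39, and -0.12, SE 0.51).

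Both genes had more calls in the 4 libraries of low Y-gene coverage. For Syn1 these were 51.3 to 60.8 of every 1000000 calls against 26.7 to 32.3 in the other 8, and for Syp 10.96 to 14.1 against 6.05 to 7.96. Pooled over groups, the levels overlapped. Syn1 ran from 0.442% to 0.721% in those 4 libraries and from 0.476% to 1.31% in the others. Syp ran from 0.408% to 1.06% and from 0.264% to 1.38%. Within each group, however, the library of low Y-gene coverage had the lowest Syn1 level. At P40 it had 0.511% in WT, against 0.594% or more, and 0.442% in the KO, against 0.476% or more. At 4 months it had 0.554% against 0.680% in WT and 0.721% against 1.31% in mi5. Syp showed no such order: at 4 months this library was the lower in WT (0.893%) and the higher in mi5 (1.06%).

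Because most genes rose, the changes were also computed relative to the shift common to all genes, with the median log odds of each library as an offset. At P40, 2 members, Syn3 and Unc13b, rose more than the common shift, against 1.04% of all genes. Below it were 8 members, Bsn, Snap25, Syt13, Rims2, Sv2b, Syt1, Syn1 and Syt11, against 3.55% of all genes. These calls depended on the model: limma on log2(percent + 0.1) called 0 of 37, limma on log2(percent + 0.5) called 8, and the logistic model without moderation of the spread called 1. The signs of the 10 were the same in all 24 alternatives run.

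Divided by the median gene level of the same library, 9 of 37 members had every KO library below every WT library, against 7.35% of all genes. Bsn was at 1.05, 0.946, 1.01 and 1.13 in WT and 0.604, 0.719, 0.706 and 0.843 in the KO. The groups did not overlap, and Bsn went from about the library median to below it (-0.55 relative to the shift, SE 0.09, adjusted p = 0.00206). On the same scale Snap25 was at 0.484, 0.484, 0.416 and 0.467 in WT and 0.293, 0.334, 0.341 and 0.387 in the KO (-0.49, SE 0.10, adjusted p = 0.00536). Syt13 was at 0.724, 0.721, 0.689 and 0.807 in WT and 0.426, 0.499, 0.605 and 0.565 in the KO (-0.52, SE 0.11, adjusted p = 0.00755). Neither overlapped, and the calls of these 3 genes held when any of the 12 libraries was left out.

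Syn3 moved the other way, from 1.57, 1.66, 1.61 and 1.5 times the library median in WT to 1.78, 1.80, 1.77 and 1.73 times in the KO (0.17, SE 0.03, adjusted p = 0.00331). Unc13b went from 1.30, 1.27, 1.32 and 1.28 to 1.45, 1.48, 1.47 and 1.38 (0.18, SE 0.04, adjusted p = 0.00842). In both genes every KO library was above every WT library, and both calls held without any 1 library. The remaining 5 members below the shift were Rims2 (-0.15, adjusted p = 0.0155), Sv2b (-0.20, adjusted p = 0.0189), Syt1 (-0.38, adjusted p = 0.0202), Syn1 (-0.71, adjusted p = 0.0454) and Syt11 (-0.50, adjusted p = 0.0493). Rims2 kept its call in 10 of 12 runs that left out a library, Sv2b and Syt1 in 9, Syn1 in 3 and Syt11 in 2.

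**Figure D3:**
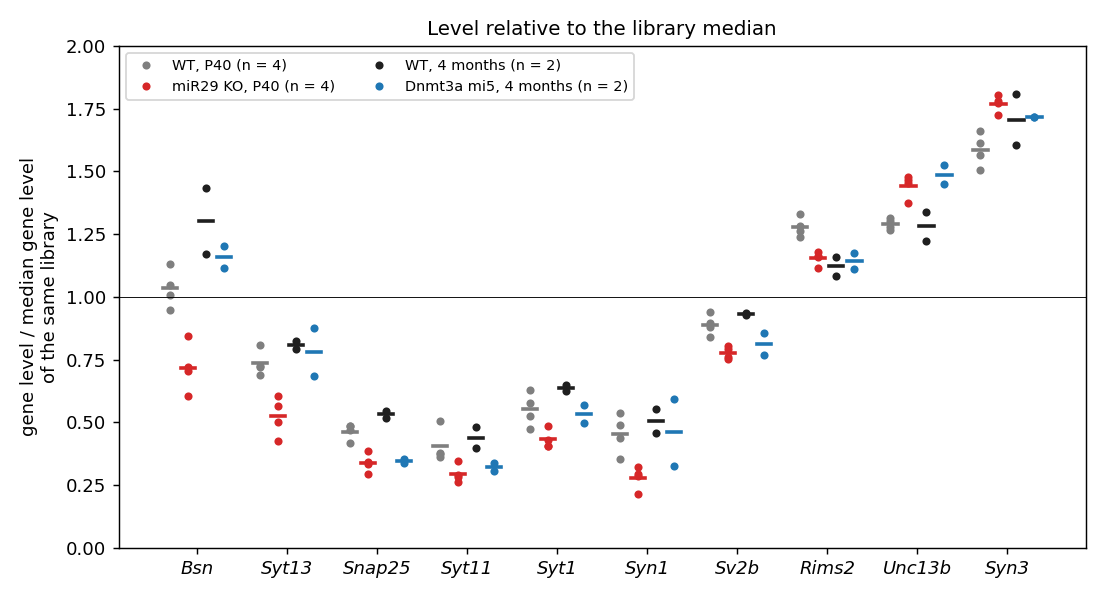
Level of the 10 members that departed from the common shift at P40, divided by the median gene level of the same library (y axis); points are libraries and bars are group means. Bsn, Syt13 and Snap25 drop in the miR29 KO without overlap with WT, and Syn3 and Unc13b rise; in Dnmt3a mi5, Bsn (1.2 and 1.12) overlaps WT (1.17 and 1.43).

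At 4 months 0 of 37 members departed from the common shift, with 6 at an unadjusted p under 0.05, and over all genes 0 were above and 0.0353% below it. Divided by the median of its own library, a level was lower in both mi5 than in both WT libraries for 13 of 37 members and for 27.6% of all genes. Snap25 was also low there, at 0.546 and 0.518 times the library median in WT and 0.352 and 0.338 in mi5 (-0.64, SE 0.15, adjusted p = 0.134). Syt13 was at 0.823 and 0.793 in WT and 0.874 and 0.683 in mi5, with overlap (-0.06, SE 0.18, adjusted p = 0.958).

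The change of a member went with its level. Levels were taken from the 4-month WT libraries. These do not enter the P40 log2 odds ratio, but they do enter the spread used for the P40 calls. The rho between level and P40 log2 odds ratio was 0.469 over 37 members and 0.428 over all genes. Of the 13 members at up to 1% in those libraries, 6 (46.2%) rose at P40, against 48.9% of genes at that level. Of the 14 between 1% and 1.5%, 12 (85.7%) rose, against 91.5% of genes, and of the 10 above 1.5%, 9 (90%) rose, against 95.8%. In 20 bins of genes with like WT level, 27 members were below the median change of their bin and 10 above it. Below the 10th percentile of the bin were 7 members, Bsn, Cplx3, Syn1, Syp, Syt4, Syt12 and Syt13, and above the 90th were Syn3 and Vamp2. Of the members that departed from the common shift at P40, Snap25, Rims2, Sv2b, Syt1, Syt11 and Unc13b lay between these percentiles of their bins. The place of Syp was uncertain, as its mean level was 1.13% in WT at 4 months but 0.563% in WT at P40. Its P40 change was 0.605 without P40 WT replicate 1, where the 10th percentile of its bin, with all libraries, was 0.4705. Members with higher levels also had more calls (rho 0.379 between mean calls and WT P40 level, 0.254 over all genes), and the part of depth in this pattern was not tested. The main model made no correction for unmethylated cytosines left unconverted, and their part in this pattern was not tested either. The changes at the 2 ages, which share no library, had a rho of 0.547 over members and 0.393 over all genes.

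**Figure D4:**
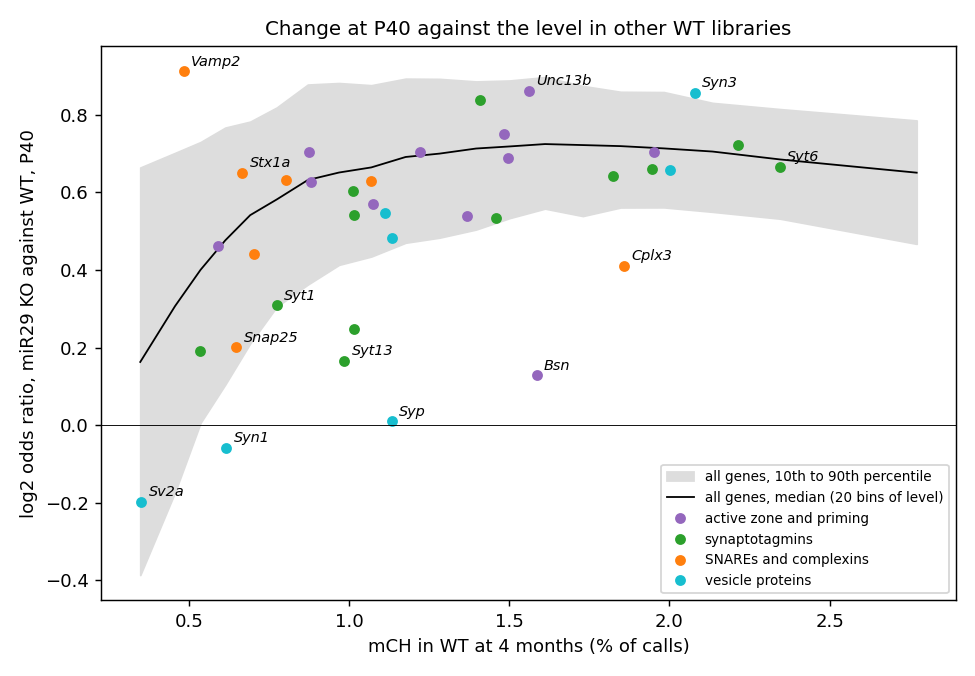
Log2 odds ratio of miR29 KO against WT at P40 (y axis) against the level in WT at 4 months (percent, x axis) for 37 members; the line is the median and the band the 10th to 90th percentile of all tested genes in 20 bins of level. Bsn at 1.59%, Cplx3 at 1.86% and Syt13 at 0.986% lie below the band, and Syn3 at 2.08% lies above it.

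Between the ages in WT cortex, 0 of 37 members changed, with 1, Syp, at an unadjusted p under 0.05 (0.98, SE 0.44, adjusted p of 1). Over all genes 0.131% rose and 0 fell, with 2.33% at an unadjusted p under 0.05. The WT groups are the controls of different mutants, so age cannot be told apart from the cohort a library belongs to. Relative to the common shift, a comparison added after the data were seen, Syn2 (0.34, SE 0.07, adjusted p = 0.0102) and Rims1 (0.24, SE 0.06, adjusted p = 0.0259) were higher at 4 months, against 1.36% of genes. Rims2 was lower (-0.20, SE 0.05, adjusted p = 0.0495), against 0.131% of genes. Of 12 runs that left out a library, Syn2 kept its call in 10, Rims1 in 9 and Rims2 in 3. Each was lost without either 4-month WT library and Rims1 also without P40 WT replicate 3, and this comparison shares its WT libraries with those of the mutants.

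Genes that work with the members, in lists of known partners, were counted by the same rule, by which 76.5% of all genes rose in the KO and 58.8% in mi5. Of 32 partners of the fusion machinery, 25 rose in the KO and 22 in mi5, with median changes of 0.57 and 0.79; among them Rab27b, a GTPase of vesicle docking, went from 2.17% to 3.67% at P40, and Cplx4, a complexin, from 1.91% to 3.40%. Of 15 active zone partners, 12 and 11 rose (medians 0.62 and 0.80). Among 25 genes of vesicle endocytosis, 18 and 16 rose (medians 0.51 and 0.84), including Dnm3, a dynamin that cuts vesicles from the membrane, from 2.10% to 3.37% at P40, and Itsn1, an endocytic scaffold, from 1.48% to 2.53%. Of 16 other vesicle membrane proteins, 9 and 7 rose (medians 0.43 and 0.73). No gene of these lists fell at either age, and relative to the common shift at P40 these lists had 2, 2, 5 and 2 genes below it and 0 above, against 3.55% and 1.04% of all genes.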

How the data were processed

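Sonicated cortical DNA with a lambda spike-in was bisulfite converted and sequenced, per the labels' protocols. The submitters' processing notes name BSMAP and mm9, without a version. The authors deposited 1 table per library that pairs each RefSeq transcript with its methylated non-CG count, a whole number, and its total, an expected count that is whole in 35.7% to 62.2% of cases. Totals were rounded; the sources used here do not give the step that made them.

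Of 36672 rows, 300 had no symbol in the RefSeq table (GRCm38.p6, used for names and printed sequences), and 1395 with 410 repeated identifiers were dropped. Each of 23882 genes was represented by its row with most calls. Replicates are separate samples in the labels, which say nothing else of their origin; p-values therefore measure the spread among these samples, which may be technical. Chi-square per gene between libraries of 1 group was 2.73 or more, so none was a repeat deposit within counting noise.

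Calls of the 12 libraries were fitted gene by gene with a quasi-binomial logistic model holding 1 mean for each group. Its dispersion (median 5.13) was moderated with limma 3.58.1 (squeezeVar, trend and robust, R 4.3.3), and p-values were adjusted by Benjamini-Hochberg over 19826 genes. Intervals cover counting error only. Alternatives covered the call minimum (100 or 2000), transcript choice, limma on percent and on log2(percent + 0.1 or 0.5), background subtraction, moderation, the replicate block, Y-gene coverage and leaving out each library.

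Members and lists were chosen with earlier results of these data known. Values in every library are given for the members with the highest and lowest WT level per role, the largest and smallest change in each mutant, those departing from the common shift, and Syn1 and Syp; the rest are given by counts, means or changes. Which of those others are named was chosen after their values were seen. Summaries and figures used matplotlib 3.10.9, scipy 1.17.1, pandas 2.3.3, numpy 2.4.6 and Python 3.11.15.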

Additional observations from a re-analysis of the deposited data

Results flagged for a closer look

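Within groups of 4 libraries, 5 member levels stood apart from the other 3 by Dixon's criterion, among 74 groups examined, where chance gives about 1 in 20. Syt11 in miR29 KO replicate 1 was at 0.688%, the highest of its group. Snap25 in WT replicate 2 at P40 was at 0.697%, above the other WT libraries. Bsn in WT replicate 1 was at 1.27%, below the other WT libraries. Sv2a in WT replicate 4 was at 0.852% and Syp in WT replicate 1 at 1.2%, each the highest of the WT libraries at P40. The libraries differ from gene to gene, and the cause was not tested.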

How the results depend on the processing

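Members past the threshold numbered 27 at P40, 23 to 28 with 1 library left out and 23 to 27 under the other alternatives. At 4 months they numbered 24, 10 to 28 with 1 library left out (the lowest without WT replicate 1, and 15 without WT replicate 2), 0 without the libraries of low Y-gene coverage (1 library a group), and 23 to 30 otherwise. Relative to the common shift at P40 the count was 10, 5 to 10 with 1 library left out (5 without KO replicate 1, 6 without WT replicate 4), 28 by limma on percent (9 above, 19 below, where the median is subtracted in points), 0 by limma on log2(percent + 0.1), 0 with the 1st percentile subtracted, 1 with no moderation and 4 without the low Y-gene coverage libraries. At 4 months that count was 0, 22 by limma on percent (9 above, 13 below), 1 by limma on log2(percent + 0.5) and 1 with the 2 groups fitted alone. The age comparison gave 0, and 3 relative to the common shift, an alternative added after the data were seen. The difference between mutants gave 0 members under every alternative run. The cause of these differences was not tested unless fewer libraries explain it.

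The same numbers in different groups did not pair libraries (correlations of same-numbered deviations at P40 of -0.011, -0.040, -0.054 and 0.109, and not every library correlated best with its own number). The replicate block gave 27 members at P40, 27 at 4 months, 9 and 0 relative to the shift and 0 for the difference; for age it could not be fitted.

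The mean level of all genes rose by 0.770 points at P40, by 0.668 to 0.915 with 1 library left out and by 0.82 without low Y-gene coverage (exact permutation p = 0.0571 and 0.1, the smallest those numbers allow). Log2 odds ratios changed sign for Syn1, Sv2a and Syp, which passed in neither comparison. Syn1 at P40 was 0.032 without low Y-gene coverage and -0.216 to 0.131 with 1 library left out. Sv2a at P40 was -0.405 to 0.317 with 1 left out, the highest without WT replicate 4. Syp at P40 was -0.013 with the replicate block, -0.212 without low Y-gene coverage and -0.214 to 0.605 with 1 left out. The highest was without WT replicate 1. By limma on percent, which gives a difference in percentage points, the Syp change at P40 was -0.010. Syp at 4 months was -0.469 to 0.162 with 1 left out, the highest without WT replicate 1. At 4 months Vamp2, the member with fewest calls, had 779 to 1289 a library; the part of depth in missed calls was not tested.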
